A study of Mus musculus with 59 samples.

Results

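Genes of the cilium and axoneme were followed through 4 ages of the mouse uterus. They were chosen by gene name, with earlier results of these data known. Members were the intraflagellar transport genes (Ift), the numbered Bardet-Biedl genes (Bbs) and the axonemal dynein heavy and intermediate chains (Dnah, Dnai1 and Dnai2). Also taken were the cilia and flagella associated proteins (Cfap), the tectonics (Tctn1 to Tctn3) and the radial spoke heads (Rsph). The tektins (Tekt1 to Tekt5), the sperm associated antigens (Spag), and Foxj1, Mks1, Rfx2, Rfx3, Mcidas and Arl13b completed the set. The deposited tables gave the members 122 of 25835 H3K4me3 peaks, at 86 genes, and 157 of 54362 H3K27ac peaks, at 79 genes. In all, 90 of the 18820 genes named in either table were members, and 75 had peaks of both marks. Not every name stands for a ciliary protein: Spag9 encodes a scaffold of JNK signalling, Spag5 a protein of the mitotic spindle and Spag11a a defensin-like secreted protein.

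A cilium is a microtubule axoneme that grows from a basal body and is wrapped in its own membrane. Most cells can carry a single immotile primary cilium, through which hedgehog signals pass, and multiciliated epithelial cells carry motile cilia whose beat is driven by dynein arms and regulated by radial spokes and the central pair. Intraflagellar transport trains (complex B outward, complex A for return) and the BBSome, a coat for membrane cargo, serve both kinds, and the transition zone gates entry. FOXJ1 and multicilin (Mcidas) switch on the motile programme, and RFX2 and RFX3 bind X-box motifs in promoters of both programmes. The mouse oviduct is rich in multiciliated cells, whereas the mouse endometrium holds few.

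The tissue was snap-frozen endometrial tissue from uteri of C57/B6 mice, and the same 27 animals gave a library for each mark. Group A3 held 10 mice of 54 to 65 weeks, A2 6 mice of 42 to 48 weeks, A1 4 mice of 28 to 36 weeks, and the young group 7 mice of 9 to 11 weeks. Native chromatin was cut with micrococcal nuclease and precipitated with antibodies to H3K4me3, a histone mark of promoters, or H3K27ac, a mark of active promoters and enhancers. The 5 input libraries were not analysed here. All groups were untreated as far as the labels say, and no allele or agent was named. Values are quantile-normalized log2 RPKM (reads scaled for peak length and library total, on a log2 scale), and differences are log2 differences from limma with Benjamini-Hochberg adjusted p-values over all peaks. A peak was called changed at an adjusted p under 0.05, and a peak within 1000 bp of a RefSeq start of its own gene was called a promoter peak.

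The H3K4me3 libraries held 6.84 to 48.3 M reads and the H3K27ac libraries 7.60 to 16.9 M reads. Member peaks had a median of 117 H3K4me3 reads and 49 H3K27ac reads per library. Markers of uterine cell types were present at promoters (24 of 29 epithelial and 20 of 26 stromal genes for H3K4me3), and they moved with age. Epithelial markers had 26 H3K4me3 peaks higher and 1 lower of 38 in A3 against young, and stromal markers 0 higher and 24 lower of 34. Smooth muscle markers had 3 higher and 7 lower of 23 (median difference −0.43), and mesothelial markers 0 higher and 4 lower of 7 (median −1.27). In H3K27ac these were 1 higher and 15 lower of 39 and 0 higher and 4 lower of 4. The mean promoter level of the epithelial list minus that of the stromal list was −1.01 at its lowest, 1.43 at the median and 2.32 at its highest in A3, against −1.02, −0.58 and 0.18 in young uteri for H3K4me3. For H3K27ac this score was −1.25, 1.01 and 1.68 in A3, against −1.02, −0.84 and 0.38 in young. The groups overlapped, because some A3 libraries lay within the young range. In H3K27ac, A3 replicate 10 (−1.25) lay below that range. The oviduct markers with H3K4me3 peaks were 3 of 6, with 4 peaks higher and 1 lower of 5. In bulk tissue a smaller number of cells of a type and less mark per cell cannot be told apart.

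RefSeq promoters of GRCm38.p6, from 250 bases before to 50 bases after a gene's start, were found for 77 member genes. They are shown because RFX factors, themselves members, act through the X-box. An X-box was searched as GTTNCC and GGNAAC, which read the same on both strands, separated by 0 to 3 bases. It was found in promoters of 6 of the 77 member genes (7.79%), against 106 of 9839 genes with an H3K4me3 promoter peak (1.08%) and 0.936% of all 27025 genes in the table. The half-site alone, GTTNCC on either strand, was in 75.3% of member genes, against 51.6% of genes with an H3K4me3 promoter peak. The forkhead core TGTTTAC, on either strand, was in 5.19% of member genes, against 3.18%. Each match is a run of letters and not a bound site. The 7 matches lay within H3K4me3 peaks and, on the transcribed strand from its 5′ end, read as follows, with the first base counted from the gene start:
Mks1, at −24: GTTGCCAGGGGAAC
Ift57, at −60: GTTGCCTGGTAAC
Tctn3, at −140: GTTGCCAGGTAAC
Tctn1, at 37: GTTGCCCGGGCAAC
Bbs7, at −121: GTTGCCTTGGAAAC
Cfap298, at −188: GTTGCCCGGGCAAC
Cfap298, at −69: GTTGCCCCTGGCAAC

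Of these 6 genes, the H3K4me3 promoter peaks of Mks1 and Ift57 fell between young and A3, and those of the other 4 did not pass the test. Whole promoters are printed for both, with the X-box in capitals, and for Rfx2 and Rfx3, where no X-box was found and half-sites are in capitals. Mks1 is on the + strand at chr11:87852965-87853264, Ift57 on the + strand at chr16:49699044-49699343, Rfx2 on the − strand at chr17:56830959-56831258 and Rfx3 on the − strand at chr19:28011117-28011416.
Mks1: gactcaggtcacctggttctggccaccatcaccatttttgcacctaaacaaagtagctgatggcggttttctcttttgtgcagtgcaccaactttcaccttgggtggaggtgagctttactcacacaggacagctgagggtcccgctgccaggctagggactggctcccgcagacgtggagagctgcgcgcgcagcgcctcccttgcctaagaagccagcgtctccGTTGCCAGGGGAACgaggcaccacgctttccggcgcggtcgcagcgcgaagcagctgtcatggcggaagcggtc
Ift57: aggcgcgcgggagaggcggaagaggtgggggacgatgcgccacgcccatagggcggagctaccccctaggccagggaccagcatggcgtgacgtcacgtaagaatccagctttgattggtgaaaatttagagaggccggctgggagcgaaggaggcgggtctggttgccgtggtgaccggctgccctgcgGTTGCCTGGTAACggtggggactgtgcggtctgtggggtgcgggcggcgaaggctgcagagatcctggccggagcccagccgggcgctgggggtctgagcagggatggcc
Rfx2: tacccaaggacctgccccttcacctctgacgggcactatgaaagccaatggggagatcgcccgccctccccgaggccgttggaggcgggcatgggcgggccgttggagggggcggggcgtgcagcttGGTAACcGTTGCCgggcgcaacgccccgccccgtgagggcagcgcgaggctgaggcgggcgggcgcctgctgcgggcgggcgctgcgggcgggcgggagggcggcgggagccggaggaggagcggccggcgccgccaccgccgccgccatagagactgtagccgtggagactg
Rfx3: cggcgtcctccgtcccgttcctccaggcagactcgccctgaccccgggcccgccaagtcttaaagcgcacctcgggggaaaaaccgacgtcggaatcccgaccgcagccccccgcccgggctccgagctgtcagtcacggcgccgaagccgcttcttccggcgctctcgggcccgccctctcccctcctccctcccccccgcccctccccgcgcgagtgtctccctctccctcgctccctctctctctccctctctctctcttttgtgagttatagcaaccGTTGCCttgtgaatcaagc

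Promoters of structural genes of motile cilia carried less H3K4me3 than those of transport genes. Taking the highest promoter peak of each gene, the median level of the 4 tektins was 2.44 in A3 and 2.68 in young uteri. It was 2.90 in A3 and 3.05 in young for 7 dynein heavy chains, and 3.22 in A3 and 3.51 in young for 4 radial spoke genes. Complex B genes stood at 4.18 in A3 and 4.35 in young over 10 genes, and BBSome genes at 4.18 in A3 and 4.23 in young over 6 genes. The median over all genes with such a peak was 3.68 in A3 and 3.70 in young. Among the regulators, the young level was lowest at Mcidas (2.06) and highest at Rfx3 (4.28), and over all members the highest young level was that of Ift88 (4.85), a complex B subunit. H3K27ac gave a narrower range, with young medians of 1.05 for 3 tektins and 2.30 for 10 complex B genes, beside A3 medians of 1.01 and 2.00 for the same roles. These levels are a description, and roles were not tested against each other.

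**Figure D1:**
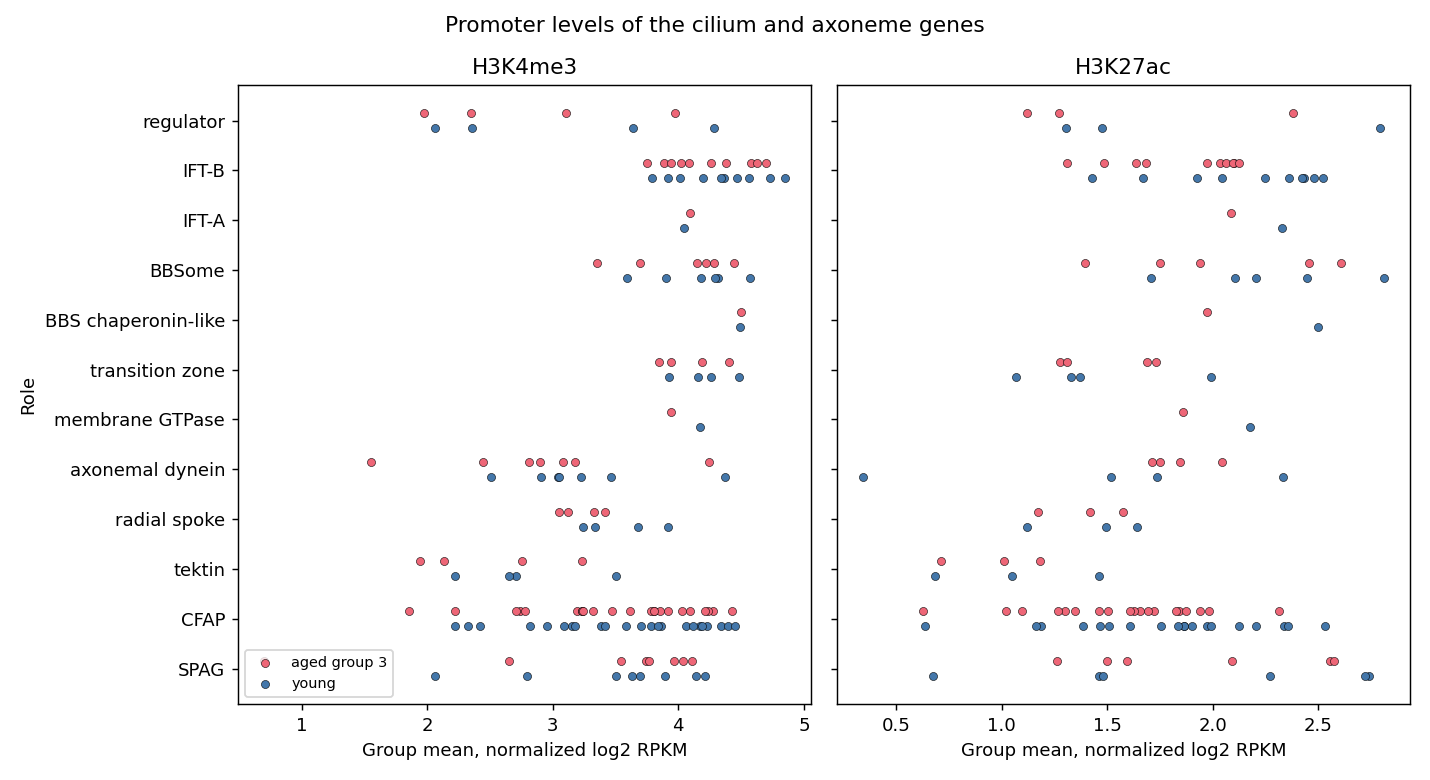
Promoter level of each member gene by role, as the group mean in quantile-normalized log2 RPKM, for H3K4me3 (left) and H3K27ac (right). Each point is a gene, with A3 above young within a role. Complex B and BBSome genes lie towards the right and tektins and most dyneins towards the left in H3K4me3.

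Between the youngest and the oldest uteri, member peaks moved in both directions in about the share seen in all peaks. For H3K4me3, 35 of 122 member peaks passed the test (28.7%), against 30.7% of all peaks. Of these, 10 were higher in A3 (8.20%, against 14.2% of all peaks) and 25 were lower (20.5%, against 16.4%). For H3K27ac, 46 of 157 passed (29.3%), against 29.3% of all peaks, with 17 higher (10.8%, against 14.4%) and 29 lower (18.5%, against 14.9%). The median difference of the members was −0.09 for H3K4me3, against −0.02 over all peaks, and −0.16 for H3K27ac, against −0.06.

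Split by place, the members' calls followed the tilt of all peaks, in which promoters had fewer gains than other peaks. At promoters, 1 of 75 H3K4me3 member peaks was higher (1.33%, against 8.98% of all promoter peaks) and 17 were lower (22.7%, against 18.3%). Away from promoters, 9 of 47 were higher (19.1%, against 19.7%) and 8 lower (17.0%, against 14.5%). For H3K27ac, 3 of 64 promoter peaks were higher (4.69%, against 6.74%) and 13 lower (20.3%, against 19.3%), while 14 of the 93 other peaks were higher (15.1%, against 16.6%) and 16 lower (17.2%, against 13.6%). The changes were mostly small. Past 2-fold and past the test were 4 H3K4me3 peaks higher (3.28%, against 5.54%) and 2 lower (1.64%, against 4.38%), and 9 H3K27ac peaks higher (5.73%, against 5.64%) and 1 lower (0.637%, against 2.68%).

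Few calls remained, at members or over all peaks, when the marker score given above entered the fit as a covariate. With this score, 0 H3K4me3 member peaks were higher and 1 lower, that of Spag16, and 0 H3K27ac member peaks passed in either direction. Of all peaks 0.720% and 0.107% passed, against 30.7% and 29.3% without the score. The score differs between A3 and young, so its part and that of age cannot be told apart in this fit. The library codes hold a digit whose meaning the labels do not give. With it as a factor 2 H3K4me3 peaks were higher and 7 lower, and 2 H3K27ac peaks were higher and 1 lower. Some digits are held by A3 libraries and by no young library. The part of the digit and that of age therefore cannot be fully told apart. Of the 21 H3K4me3 calls named by rule and described here, 6 passed with that factor, those of Cfap300, Cfap43 (2 peaks), Dnah1, Rfx2 and Rsph4a, and of the 26 such H3K27ac calls 3 did, those of Cfap58, Spag1 and Tekt5. Among mice numbered under 100, 3 in A3 and 6 in the young group, the counts were 0 and 5 for H3K4me3 and 0 and 0 for H3K27ac. Shares of all peaks are not given for the digit and mouse-number fits. Their counts therefore do not say whether members differed from other peaks. The score has A3 libraries within the young range, and beyond these fits its part in the differences was not tested.

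**Figure D2:**
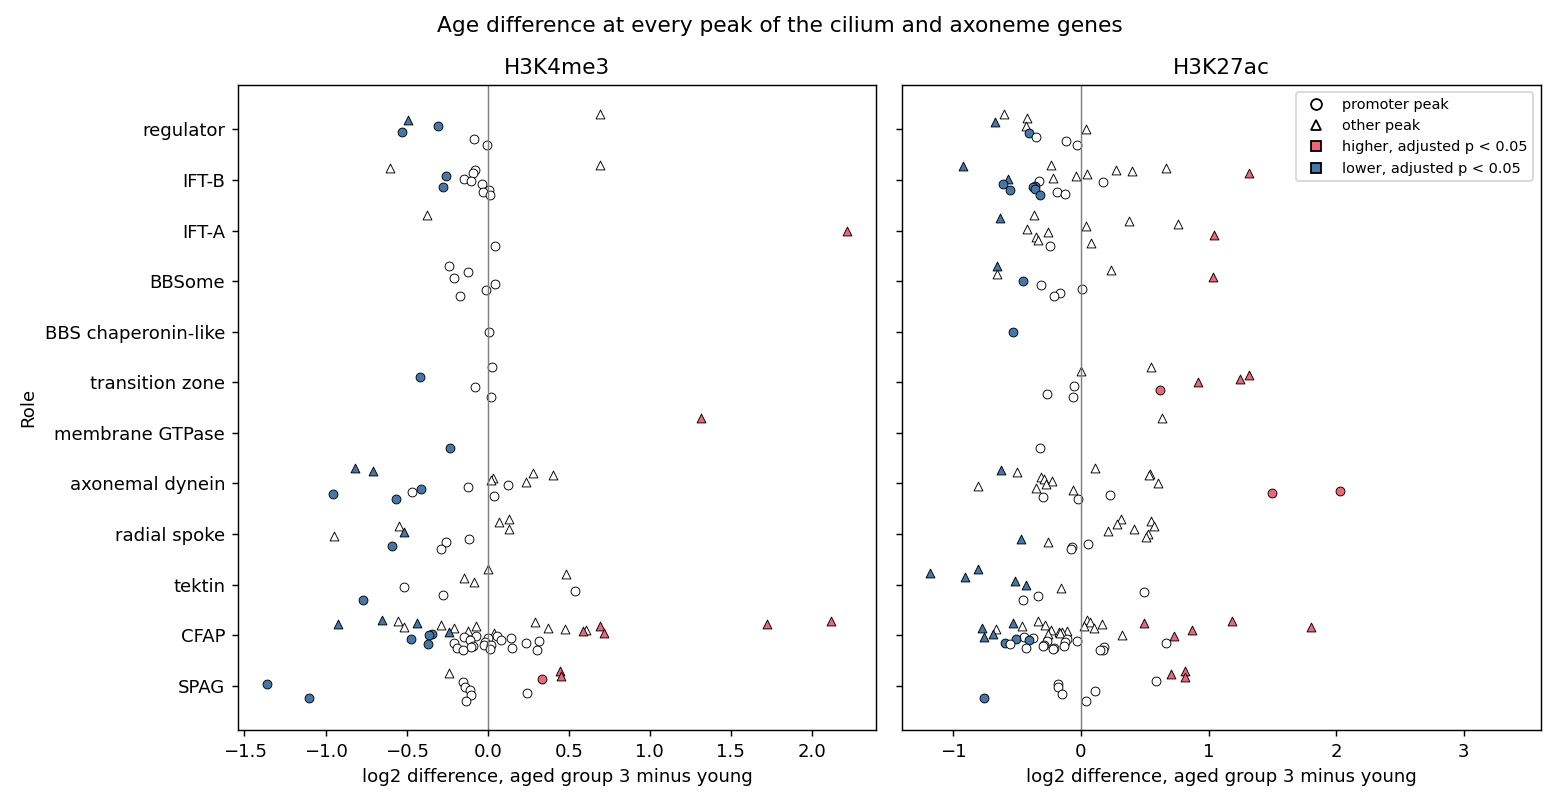
Log2 difference, A3 minus young, at all 122 H3K4me3 (left) and 157 H3K27ac (right) member peaks by role. Circles are promoter peaks and triangles other peaks, filled red where higher and blue where lower at an adjusted p under 0.05. Filled circles lie mostly left of 0, and gains are mostly triangles.

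Among the regulators, the promoters of Rfx2 and Rfx3 lost H3K4me3, while those of Foxj1 and Mcidas showed no detectable change. Rfx2 (chr17:56828914-56831980) ranged over 2.73, 3.12 and 3.43 (lowest, median, highest) in A3, and over 3.39, 3.67 and 3.78 in young uteri. All 10 A3 libraries lay below the young mean and 8 below every young library, so the groups overlapped slightly. The means were 3.11 ± 0.25 in A3 and 3.64 ± 0.14 in young (SD, n = 10 and 7), a difference of −0.53 ± 0.10 (SE, adjusted p = 0.000659). It was −0.43 (adjusted p = 0.0205) with the code digit as a factor and −0.24 (adjusted p = 0.327) with the marker score.

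The Rfx2 promoter also passed between the 2 oldest groups, in a call that was lost when single libraries were left out. In A2 its promoter stood at 3.34, 3.62 and 3.93 (lowest, median, highest), and in A1 at 3.31, 3.64, 3.64 and 3.68. Those ages overlapped the young range, and A3 lay mostly below them. The difference of A3 from A2 was −0.50 ± 0.10 (adjusted p = 0.0405), and this was the single member peak called between those ages (0.82%, against 0.205% of all peaks), with 0 higher (0.0542% of all peaks) and 1 lower. The call was lost when any 1 of 11 of these 16 libraries was left out, namely A3 replicate 2, 5, 6, 7, 8 or 9 or A2 replicate 1, 2, 3, 4 or 6 (−0.52 to −0.44, adjusted p = 0.0548 to 0.191). It was also lost on values as deposited, with only these 2 groups fitted and with the replicate number as a block (adjusted p = 0.168, 0.198 and 0.123). At an unadjusted p under 0.05 were 28 member peaks, against 21.6% of all peaks. H3K27ac at a promoter peak of Rfx2 averaged 1.12 ± 0.33 in A3 and 1.47 ± 0.29 in young, −0.35 ± 0.15 (adjusted p = 0.0792). A second promoter peak differed by −0.12 (adjusted p = 0.751). At a peak within the gene, 14723 bp from its start, H3K27ac averaged 1.07 ± 0.51 in A3 and 1.74 ± 0.34 in young. There it fell by 0.67 (adjusted p = 0.0192), and of the 6 H3K27ac peaks of Rfx2 this was the 1 that passed. The second H3K4me3 peak of Rfx2, within the gene, differed by 0.69 and did not pass (adjusted p = 0.113).

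Rfx3 fell in both marks at its promoter. H3K4me3 (chr19:28009637-28012750) was 3.68, 3.97 and 4.35 in A3, against 4.17, 4.31 and 4.36 in young. In A3, 9 of 10 libraries were below every young library, and the remaining one was near the top of the young range. The difference was −0.31 ± 0.08 (adjusted p = 0.00401). H3K27ac there was 1.98, 2.42 and 2.91 in A3, against 2.43, 2.90 and 3.02 in young, and fell by 0.41 (adjusted p = 0.0177). With the code digit as a factor neither passed (−0.26, adjusted p = 0.0541, for H3K4me3 and −0.30, adjusted p = 0.155, for H3K27ac), nor did they with the marker score (−0.14 and −0.10). The H3K4me3 call was also lost on values as deposited (−0.42, adjusted p = 0.0796), and the H3K27ac call under median centring (−0.30, adjusted p = 0.0743).

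Foxj1 (chr11:116333607-116336261) had 1.78, 2.35 and 3.01 in A3, against 1.97, 2.33 and 2.63 in young uteri for H3K4me3. The groups overlapped across the young range. Its difference was −0.00 with a 95% interval of −0.35 to 0.34 (adjusted p = 0.986), and for H3K27ac −0.03 with an interval of −0.61 to 0.55 (adjusted p = 0.943). The Mcidas promoter had 1.97 ± 0.38 in A3 and 2.06 ± 0.30 in young, a difference of −0.09 with an interval of −0.49 to 0.32 (adjusted p = 0.771). Its second H3K4me3 peak, 4358 bp from the start within the gene, averaged 2.68 ± 0.32 in A3 and 3.17 ± 0.32 in young, and fell by 0.49 (adjusted p = 0.0104). H3K27ac at that place did not pass the test (0.04, adjusted p = 0.908).

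**Figure D3:**
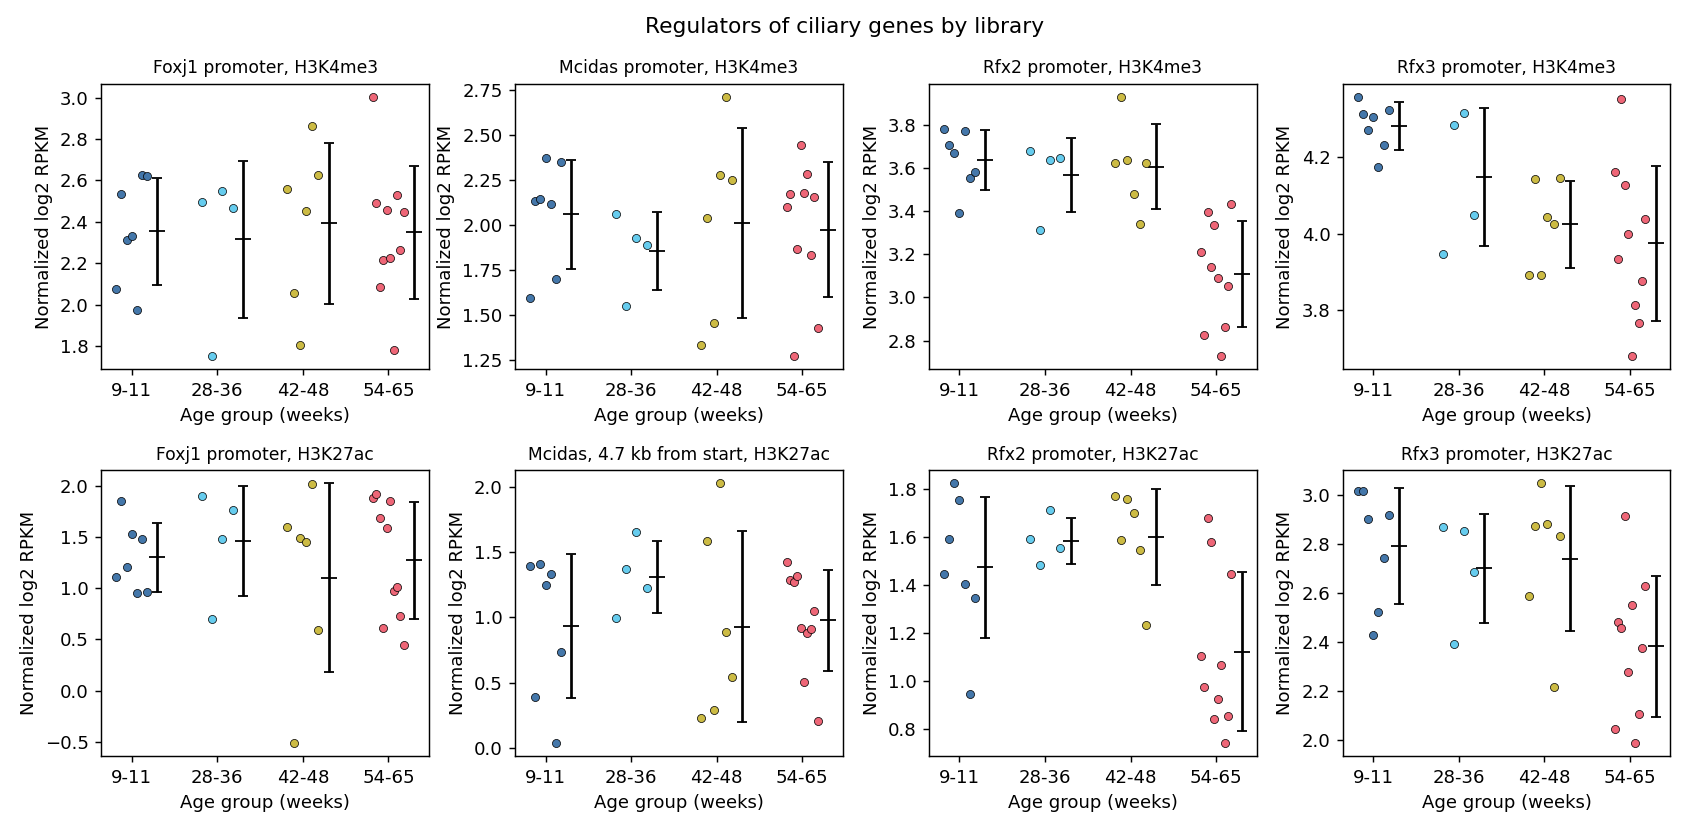
H3K4me3 (top) and H3K27ac (bottom) at peaks of Foxj1, Mcidas, Rfx2 and Rfx3 in quantile-normalized log2 RPKM by age group in weeks. Points are libraries, and the bar to their right is the mean with the SD. In H3K4me3, most libraries of 54 to 65 weeks lie low at the Rfx2 and Rfx3 promoters, with overlap. At the Foxj1 and Mcidas peaks shown, the libraries of that age lie within or around the younger range.

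The transition zone gave the single pair of overlapping peaks that passed in opposite directions. MKS1 is a core protein of the transition zone. H3K4me3 at its promoter (chr11:87852588-87854009) was 3.47, 3.75 and 4.31 in A3, against 4.16, 4.28 and 4.36 in young, with 8 of 10 A3 libraries below every young one. It fell by 0.42 (SE 0.11, adjusted p = 0.00667). H3K27ac over the same start (chr11:87852485-87855589) was 0.96, 1.80 and 2.25 in A3, against 0.58, 1.22 and 1.42 in young, with 7 of 10 A3 libraries above every young one. It rose by 0.62 ± 0.21 (adjusted p = 0.0256), and a peak 1016 bp upstream rose by 1.32 ± 0.44 (adjusted p = 0.0271). Leaving out 1 of the 17 libraries at a time, the promoter gain missed the threshold without young replicate 1 or A3 replicate 2, 7 or 8 (0.54 to 0.57, adjusted p = 0.0503 to 0.0643). The upstream gain missed it without young replicate 6 or 7 or A3 replicate 2 (1.04 to 1.20, adjusted p = 0.0529 to 0.0785). With the marker score as a covariate the promoter differences were −0.01 for H3K4me3 and 0.31 for H3K27ac, and neither passed.

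The tectonics, which form a complex with MKS1 partners at the transition zone, did not pass at their promoters. H3K4me3 differed by −0.08 at Tctn1 (95% interval −0.20 to 0.04), 0.02 at Tctn2 (−0.17 to 0.21) and 0.03 at Tctn3 (−0.12 to 0.18). The H3K27ac promoter differences were −0.26 for Tctn1 (adjusted p = 0.0847), −0.06 for Tctn2 (adjusted p = 0.823) and −0.05 for Tctn3 (adjusted p = 0.875). Gains of H3K27ac stood beside them: 1.25 ± 0.43 at a peak 1590 bp from the Tctn1 start (adjusted p = 0.0298), and 0.92 ± 0.31 at a peak within Tctn2 that holds the start of Atp6v0a2, a proton pump subunit (adjusted p = 0.0283). The Tctn1 gain missed the threshold without young replicate 2, 3 or 4 or A3 replicate 2, 6, 7, 8 or 9, left out singly (1.10 to 1.20, adjusted p = 0.0504 to 0.0588). The Tctn2 gain missed it without young replicate 1, 2 or 6 or the same 5 A3 libraries (0.80 to 0.90, adjusted p = 0.0507 to 0.0584).

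Arl13b, the GTPase of the ciliary membrane, moved both ways within H3K4me3. Its promoter was 3.94 ± 0.18 in A3 and 4.17 ± 0.12 in young and fell by 0.23 (adjusted p = 0.0436). That call was lost without young replicate 2, 5, 6 or 7 or A3 replicate 1, 2, 6, 7, 8 or 9, left out singly (−0.23 to −0.20, adjusted p = 0.0571 to 0.0968). It was also lost on values as deposited and with the replicate number as a block. A peak 38722 bp away within the gene, 6358 bp from the start of Stx19, was 0.02, 1.41 and 2.46 in A3, against −0.96, 0.26 and 0.44 in young, and rose by 1.31 ± 0.38 (adjusted p = 0.0120). H3K27ac at Arl13b did not pass at either place (−0.32, adjusted p = 0.108, and 0.63, adjusted p = 0.114).

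Complex B of intraflagellar transport lost H3K27ac at 6 of 10 promoter peaks, those of Ift27, Ift52, Ift57, Ift74, Ift80 and Ift88, and gained it at 0, against 19.3% of all promoter peaks lower and 6.74% higher. The promoters of Ift22, Ift46, Ift81 and Ift172 did not pass, with differences from −0.32 at Ift172 to 0.18 at Ift46, nor did that of Ift43 of complex A (−0.24). Over all 20 complex B peaks, 8 were lower and 1 higher, against 14.9% and 14.4% of all peaks. Ift57 (chr16:49698207-49700226) was 1.04, 1.55 and 2.23 in A3, against 1.67, 2.28 and 2.58 in young. All 10 A3 libraries were below the young mean, within an overlapping range. It fell by 0.61 ± 0.16 (adjusted p = 0.00847), and H3K4me3 there fell by 0.25 (adjusted p = 0.0495).

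Ift74, which forms the tubulin-binding module of complex B with Ift81, fell by 0.55 in H3K27ac (1.97 ± 0.32 in A3 and 2.52 ± 0.19 in young, adjusted p = 0.00793) and by 0.27 in H3K4me3 (adjusted p = 0.0177). Ift80, whose peak also covers the neighbouring Smc4, fell by 0.37 in H3K27ac (2.06 ± 0.27 in A3 and 2.43 ± 0.13 in young, adjusted p = 0.0171). The Ift80 call was lost on values as deposited and under median centring. Ift81 had a peak lower by 0.57, 4520 bp from its start (adjusted p = 0.0428), and a peak higher by 1.32 within the gene (1.31 ± 0.90 in A3 and −0.01 ± 0.46 in young, adjusted p = 0.00638). For H3K4me3, 2 of 12 complex B peaks were lower, those of Ift57 and Ift74, and 0 higher, against 16.4% and 14.2% of all peaks.

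Ift122, a complex A subunit that represses hedgehog signalling in the mouse, held an H3K4me3 gain at a site within the gene (chr6:115886495-115888315) 33116 bp from its start. It was −0.85, 1.72 and 3.71 in A3, against −1.62, −0.83 and 0.80 in young, with 6 of 10 A3 libraries above every young one and 1 below the young mean. A2 spanned −1.33 to 1.47 with a median of 0.10, and A1 stood at −1.21, −0.54, −0.11 and −0.06. The difference was 2.22 ± 0.54 (adjusted p = 0.00408), at a median of 24 reads per library. H3K27ac at the overlapping peak rose by 1.04 ± 0.22 (1.61 ± 0.57 in A3 and 0.56 ± 0.25 in young, adjusted p = 0.00315). With a pseudocount of 0.5 RPKM the H3K4me3 difference was 1.67, and neither mark passed with the code digit as a factor. With the marker score the differences were 0.14 for H3K4me3 and 0.43 for H3K27ac, and neither passed. Ift140, also of complex A, fell by 0.63 in H3K27ac (adjusted p = 0.0132) at a peak 61533 bp from its start that also overlaps Tmem204. With the code digit as a factor it did not pass (−0.47, adjusted p = 0.0961).

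Among the Bardet-Biedl genes, 0 of 6 BBSome peaks passed for H3K4me3, against 30.7% of all peaks. For H3K27ac, 1 of 9 BBSome peaks was higher and 2 were lower, both at Bbs9, against 14.4% and 14.9% of all peaks. In that mark the Bbs9 promoter fell by 0.45 (median 1.64 in A3 and 2.25 in young, adjusted p = 0.0314). A Bbs2 peak 7995 bp from the start rose by 1.04 (adjusted p = 0.0247). Bbs10, a chaperonin-like factor of BBSome assembly, fell by 0.53 ± 0.14 at its promoter (1.97 ± 0.44 in A3 and 2.50 ± 0.11 in young, adjusted p = 0.00924). Its H3K4me3 differed by 0.01.

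**Figure D4:**
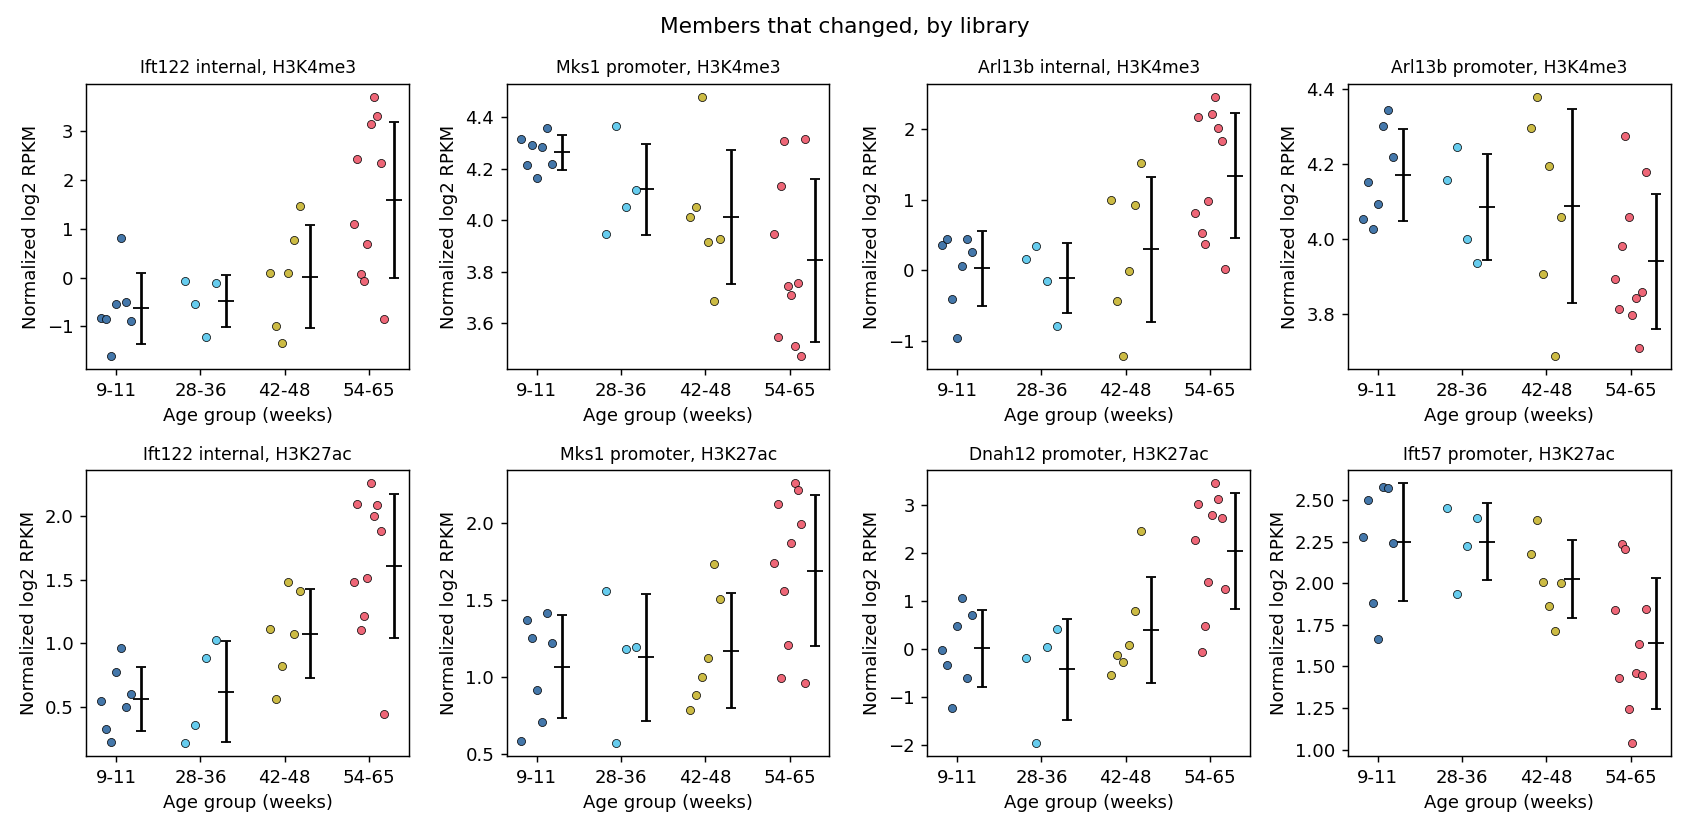
Peaks of Ift122, Mks1, Arl13b, Dnah12 and Ift57 in quantile-normalized log2 RPKM by age group in weeks, with the mark named in each panel. Points are libraries, and the bar to their right is the mean with the SD. The Ift122 and Dnah12 peaks lie highest and widest at 54 to 65 weeks, and the Mks1 promoter is lower in H3K4me3 and higher in H3K27ac at that age.

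Axonemal dynein genes lost H3K4me3 at 5 of 14 peaks, those of 5 heavy chains, and gained it at 0, against 16.4% of all peaks lower and 14.2% higher. The other 9 did not pass, and the median difference of the 14 was −0.05. Dnah9, an outer arm heavy chain, had 0.55, 1.41 and 2.55 at its promoter in A3, against 2.23, 2.46 and 2.82 in young, and fell by 0.96 ± 0.26 (adjusted p = 0.00867). In A3, 7 of 10 libraries lay below every young library and the other 3 within the young range. Dnah11, also an outer arm heavy chain, fell by 0.57 at its promoter (2.90 ± 0.43 in A3 and 3.47 ± 0.41 in young, adjusted p = 0.0174). Inner arm genes gave 3 losses. Dnah1 fell by 0.82 (1.73 ± 0.39 in A3 and 2.55 ± 0.24 in young, adjusted p = 0.00187) at a peak within the gene, 115 bp from the start of Gm35823. The Dnah1 promoter peak did not pass (0.13, adjusted p = 0.377). Dnah2 fell by 0.71 (adjusted p = 0.0251) at a site 95678 bp from its start, and in H3K27ac by 0.62 (adjusted p = 0.0328). The other H3K4me3 peaks of Dnah2 did not pass (0.28, 0.40 and 0.03). Dnah7c fell by 0.41 (adjusted p = 0.0293), but Dnah7a, Dnah7b and Dnah7c are near-identical copies whose reads could be split between them.

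Dnah12, an inner arm chain, was the one dynein gene with H3K27ac gains. A peak 419 bp from its start (chr14:26690299-26691135) was −0.07, 2.49 and 3.45 in A3, against −1.22, −0.01 and 1.06 in young, with 9 of 10 A3 libraries above the young mean. It rose by 2.03 ± 0.48 (adjusted p = 0.00521) at a median of 15 reads per library, and a second peak at the start rose by 1.50 ± 0.37 (adjusted p = 0.00699). No H3K4me3 peak was named for Dnah12.

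Radial spoke genes had 2 of 10 H3K4me3 peaks lower, with a median difference of −0.27, and 1 of 13 H3K27ac peaks lower, with a median of 0.28, and no peak higher in either mark. The shares of all peaks lower were 16.4% and 14.9%. Rsph4a, a spoke head subunit, was 2.87, 3.30 and 3.85 at its promoter (chr10:33904608-33905692) in A3, against 3.71, 3.86 and 4.29 in young. All 10 A3 libraries were below the young mean, and the ranges overlapped. It fell by 0.59 ± 0.13 in H3K4me3 (adjusted p = 0.00204). Rsph14 fell by 0.52 at a peak within the gene (adjusted p = 0.0101). Rsph9, also of the spoke head, fell by 0.47 in H3K27ac (adjusted p = 0.0446). Rsph3a and Rsph3b are near-identical copies, and several of their peaks held few reads, so their values are uncertain.

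Tektins line the lumen of the doublet microtubules. Of their 8 H3K4me3 peaks, 1 was lower and 0 higher, against 16.4% and 14.2% of all peaks. Of their 9 H3K27ac peaks, 5 were lower and 0 higher, against 14.9% and 14.4%, and these losses were all at Tekt5. Tekt2 fell by 0.77 ± 0.19 in H3K4me3 at its promoter (1.94 ± 0.40 in A3 and 2.71 ± 0.19 in young, adjusted p = 0.00457). Tekt5 had 5 H3K27ac peaks between 9934 and 28066 bp from its start, and all 5 fell. The one with the smallest p (chr16:10368639-10369744) was −0.35, 0.58 and 1.61 in A3, against 1.49, 1.64 and 2.13 in young, and fell by 1.18 ± 0.25 (adjusted p = 0.00331). The other 4 fell by 0.43 to 0.90. None of these is a promoter peak, and the H3K4me3 peak at the Tekt5 start did not pass (−0.52, adjusted p = 0.0654).

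The Cfap genes, many of them proteins inside or along the doublet microtubules, had calls in both directions at about the share of all peaks. Of 44 H3K4me3 peaks, 8 were lower and 5 higher, against 16.4% and 14.2% of all peaks, and of 45 H3K27ac peaks, 7 were lower and 5 higher, against 14.9% and 14.4%. Cfap300, in humans a dynein arm assembly factor, was 3.57, 3.74 and 4.27 at its promoter (chr9:8041953-8043540) in A3, against 4.09, 4.13 and 4.31 in young. The highest A3 library lay within the young range and the other 9 below every young library. It fell by 0.36 ± 0.08 in H3K4me3 (adjusted p = 0.00241). A peak named for Cfap126, which positions basal bodies in the mouse, lies 1303 bp from its start over a transfer RNA gene. It fell by 0.68 in H3K27ac (2.08 ± 0.47 in A3 and 2.76 ± 0.14 in young, adjusted p = 0.00302), and an overlapping one fell by 0.24 in H3K4me3 (adjusted p = 0.0398). The promoter peaks of Cfap126 did not pass, with differences of 0.01 and 0.30 in H3K4me3 and −0.22 and 0.17 in H3K27ac. Cfap410 fell by 0.60 (adjusted p = 0.0118) and Cfap161 by 0.77 (adjusted p = 0.0172) in H3K27ac.

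Cfap45, a protein of the doublet lumen, rose in both marks at a peak 3446 bp from its start. H3K27ac (chr1:172524576-172527425) was 1.45, 1.74 and 2.16 in A3, against 0.71, 0.98 and 1.62 in young, and all 10 A3 libraries were above the young mean. It rose by 0.73 ± 0.16 (adjusted p = 0.00389), and H3K4me3 by 0.72 ± 0.21 (adjusted p = 0.0126). A second H3K27ac peak, 9156 bp from the start, was 0.66 ± 0.31 in A3 and 1.42 ± 0.49 in young, and fell by 0.76 (adjusted p = 0.0142).

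In H3K4me3, 9 member peaks carry the name of Cfap43, known from Tetrahymena as part of a tether of inner arm dyneins, and several lie over its neighbours. The largest gains were at chr19:47821344-47821781 (2.70 ± 0.83 in A3 and 0.58 ± 1.32 in young, a rise of 2.12, adjusted p = 0.00131) and at chr19:47874372-47875235, which RefSeq places within Gsto2, a glutathione transferase gene. The second was 0.93, 2.18 and 2.74 in A3, against −0.50, 0.34 and 0.77 in young. Here the groups did not overlap, the single such member peak of H3K4me3 higher in A3 (0.82%, against 0.918% of all peaks), and the rise was 1.72 ± 0.33 (adjusted p = 0.000809). No member peak lay below young without overlap in H3K4me3 (0 peaks, against 0.352% of all), and none lay without overlap in H3K27ac (0.35% of all peaks above and 0.21% below). A peak at chr19:47890489-47891373, between the Gsto2 and Itprip genes, was 2.17 ± 0.58 in A3 and 3.09 ± 0.22 in young, and fell by 0.92 (adjusted p = 0.00221). The H3K27ac peak that rose by 0.49 (adjusted p = 0.0116) covers the start of Gsto1, and H3K4me3 at the Cfap43 start itself differed by −0.11 (adjusted p = 0.543).

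The remaining named Cfap gains were smaller in reads. Cfap58, of the sperm tail in the mouse, rose by 1.80 ± 0.36 in H3K27ac at a peak 2294 bp from its start (1.98 ± 0.60 in A3 and 0.17 ± 1.00 in young, adjusted p = 0.00236), with a median of 26 reads. Cfap206, in Tetrahymena a protein of the base of a radial spoke, rose by 1.18 (adjusted p = 0.0135) and Cfap54, of the central pair, by 0.87 (adjusted p = 0.0146), both within the gene. In H3K4me3, Cfap53 rose by 0.69 (adjusted p = 0.0142) and Cfap61 by 0.59 (adjusted p = 0.0234), also within the gene, and the Cfap61 difference was −0.15 with the marker score as a covariate. Without young replicate 2 the Cfap61 gain was 0.51 and missed the threshold (adjusted p = 0.0603). The Cfap53 and Cfap61 calls were also lost on values as deposited.

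Among the Spag genes, Spag1, a dynein assembly factor, rose in both marks at a peak 33779 bp from its start that overlaps Gm41293. H3K4me3 was 2.81, 3.31 and 3.42 in A3, against 2.51, 2.79 and 3.11 in young, and rose by 0.46 ± 0.12 (adjusted p = 0.00719). All 10 A3 libraries were above the young mean, and the ranges overlapped. H3K27ac rose by 0.71 ± 0.18 (adjusted p = 0.00854). The H3K4me3 call of Spag1 was lost on values as deposited. Spag6l, of the central pair, gave the single H3K4me3 promoter gain (0.33 ± 0.11, 3.97 ± 0.15 in A3 and 3.63 ± 0.26 in young, adjusted p = 0.0231), but it has a near-identical copy, Spag6, whose promoter differed by −0.15 (adjusted p = 0.418), and reads could be split between them. The Spag6l gain missed the threshold without young replicate 1, 3 or 7, left out singly (0.28 to 0.31, adjusted p = 0.0507 to 0.0670). It was also lost on values as deposited.

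Spag8, a protein of the doublet lumen, lost H3K4me3 at a shallow promoter peak. Its promoter was −1.08, 0.61 and 2.39 in A3, against 1.54, 2.16 and 2.46 in young, and fell by 1.36 ± 0.31 (adjusted p = 0.00262), at a median of 15 reads. The members with no ciliary role also moved. Spag9 fell at its second start (2.45 ± 0.87 in A3 and 3.55 ± 0.37 in young, −1.10, adjusted p = 0.00639), where H3K27ac fell by 0.76 (adjusted p = 0.0279), and not detectably at its first (−0.10, adjusted p = 0.0785). With the marker score the difference at the second start was 0.07. Spag11a rose by 0.45 (adjusted p = 0.0205) at a peak that overlaps Defb14, and Spag5 by 0.82 in H3K27ac (adjusted p = 0.0241) at a peak over the start of Aldoc. The Spag11a gain missed the threshold without young replicate 3 or 7 (0.40, adjusted p = 0.0507 to 0.0509), and the Spag5 gain without young replicate 3 (0.72, adjusted p = 0.0605). The Spag11a call was also lost on values as deposited and with the replicate number as a block.

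Both marks could be read at the same place for most members. Of 122 H3K4me3 member peaks, 92 overlapped an H3K27ac member peak of the same gene, and 92 of 157 H3K27ac peaks did so in turn. Peaks of 6 genes fell in both marks, those of Cfap126, Dnah2, Ift57, Ift74, Rfx3 and Spag9, which is 24% of the H3K4me3 losses and 20.7% of the H3K27ac losses. Those of Cfap45, Ift122 and Spag1 rose in both, 30% of the H3K4me3 gains and 17.6% of the H3K27ac gains. The matching shares over all overlapping peaks were not computed. These counts therefore do not say whether joint changes were more or less common at members. Mks1 alone passed in opposite directions, and the difference between the marks was not itself tested.

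**Figure D5:**
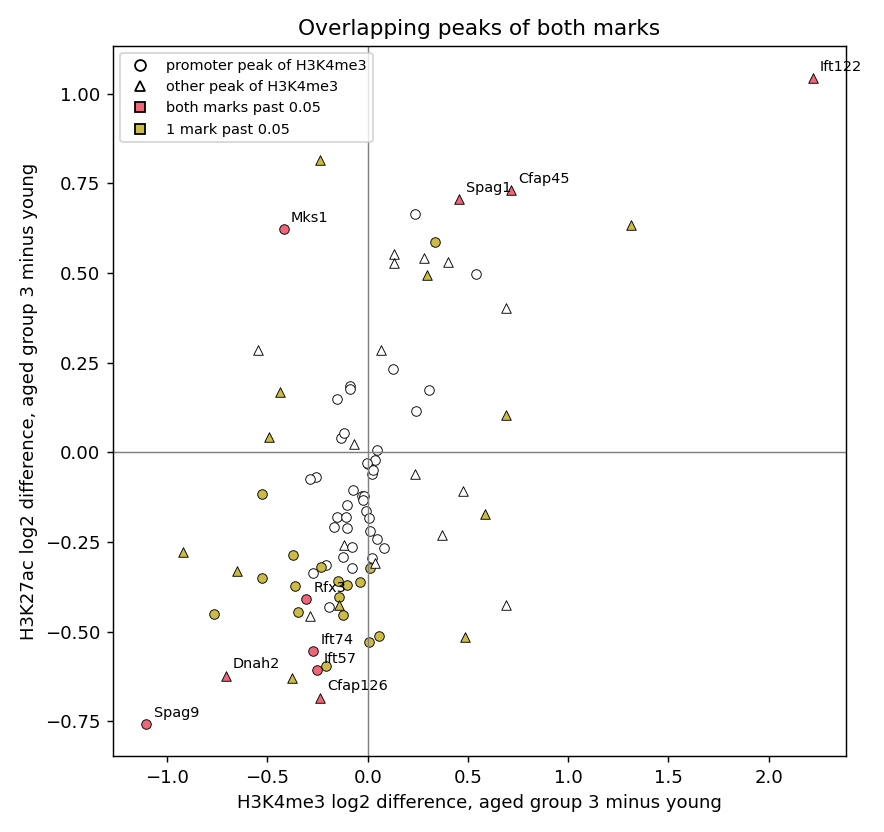
Log2 difference, A3 minus young, in H3K4me3 (horizontal) and H3K27ac (vertical) at overlapping member peaks. Red points passed in both marks and carry the gene name, yellow points passed in 1 mark and white points in neither. Mks1 is the single red point in the upper left quadrant.

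At the earlier ages no member peak passed. For A2 against young, 0 of 122 H3K4me3 peaks passed (limma, 0.217% of all peaks passed) and 11 had an unadjusted p under 0.05 (7.7% of all peaks). In H3K27ac, 0 of 157 peaks passed (0.011% of all peaks), with 13 unadjusted (8.92% of all peaks). For A1 against young, 0 member peaks passed in H3K4me3 (0.00387% of all peaks) and in H3K27ac (0% of all peaks), with 3 (3.61% of all peaks) and 7 (3.93%) at an unadjusted p under 0.05. A1 has 4 libraries, which limits what this comparison can detect. Between A3 and A2, 0 member peaks passed in H3K27ac (0% of all peaks), with 28 unadjusted (16% of all peaks). These comparisons share their A3, A2 or young libraries with each other.

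Other genes of these pathways, from lists chosen with results of these data known, showed their own counts in A3 against young. Of 67 H3K4me3 peaks at 43 further genes of motile cilia, 10 were higher and 12 lower, against 14.2% and 16.4% of all peaks, and of 63 H3K27ac peaks 5 were higher and 9 lower, against 14.4% and 14.9%. Capsl, a calcium-binding protein gene, rose by 0.87 at its promoter in H3K4me3 (3.47 ± 0.28 in A3 and 2.60 ± 0.37 in young, adjusted p = 7.8e-05). Tppp3, a tubulin-binding protein gene, fell by 0.79 (2.22 ± 0.44 in A3 and 3.01 ± 0.17 in young, adjusted p = 0.00172). Ccdc39, a ruler protein of the axoneme, fell by 0.44 at its promoter (adjusted p = 0.00720).

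Of 70 H3K4me3 peaks at 51 further genes of the primary cilium and its transport, 8 were higher and 12 lower, against 14.2% and 16.4% of all peaks, and of 95 H3K27ac peaks 8 were higher and 28 lower, against 14.4% and 14.9%. The motor of returning trains, Dync2h1, fell by 0.43 in H3K4me3 (3.56 ± 0.32 in A3 and 3.98 ± 0.14 in young, adjusted p = 0.00418) and by 0.59 in H3K27ac (adjusted p = 0.0114) at a promoter peak. Evc, which relays hedgehog signals at the base of the cilium, fell by 0.98 in H3K4me3 (2.45 ± 0.72 in A3 and 3.43 ± 0.14 in young, adjusted p = 0.00270).

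Hedgehog genes, whose signal passes through the primary cilium, had 0 H3K4me3 peaks higher and 10 lower of 20, against 14.2% and 16.4% of all peaks, and 3 H3K27ac peaks higher and 19 lower of 54, against 14.4% and 14.9%. The median difference of these peaks was −0.57 for H3K4me3, against −0.02 over all peaks, and −0.46 for H3K27ac, against −0.06. Gli1, a transcriptional target and effector of the pathway, averaged 2.43 ± 0.83 at its promoter in A3 and 3.44 ± 0.28 in young, and fell by 1.01 (adjusted p = 0.00502). The receptor gene Ptch1 fell by 0.29 at its promoter (3.44 ± 0.18 in A3 and 3.73 ± 0.14 in young, adjusted p = 0.00961). Stromal markers fell in the same comparison, as given above, and their part in these values was not tested. Among relatives of the member regulators, 4 of 9 H3K4me3 peaks were higher and 1 lower, against 14.2% and 16.4% of all peaks. Foxa2, a forkhead factor of uterine glands, rose by 1.98 at its promoter (2.86 ± 0.65 in A3 and 0.88 ± 0.41 in young, adjusted p = 0.000197), beside the epithelial markers, of which it is one.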

How the data were processed

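Chromatin immunoprecipitation with sequencing gave 27 libraries per mark. The authors deposited log2 RPKM values per peak and library. Reads were aligned to GRCm38 with Bowtie2, and the tools also named were deepTools 3.5.1, ChIPseeker 1.34.1, DESeq2, DiffBind 3.8.0 and MACS2 2.2.9.1, without their roles, per the submitters' processing notes. Genes are those the deposited tables name. A value equals whole reads within 0.05, or 0.9 reads for an empty peak, which gave the read totals.

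Values were quantile normalized and fitted with limma 3.58.1 in R 4.3.3 as 4 group means with a mean-variance trend, two-sided, with Benjamini-Hochberg adjustment over 25827 H3K4me3 and 54354 H3K27ac peaks on chromosomes 1 to 19 and X. The script was tested on simulated data. No filter was applied, and 104 of 122 and 128 of 157 member peaks lay at or above the lower quartile of mean level. Named genes were Foxj1, Mcidas, Rfx2, Rfx3, Arl13b, Mks1, Tctn1 to Tctn3 and, per mark and direction, the 10 member genes with the smallest p past the threshold (1 peak per gene). Other members named beside them, and genes of the pathway lists, were picked after their values were seen. Members and lists were chosen with earlier results of these data known. The labels call replicates separate animals by number.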

Additional observations from a re-analysis of the deposited data

Results flagged for a closer look

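Within a group of 4 to 10 libraries, 27 named-peak values stood apart from the rest of their group by Dixon's criterion at its 95% limit. In all, 268 groups of libraries were tested, and chance flags about 1 in 20 groups. No explanation of these values was tested.

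In H3K4me3, A3 replicate 10 was the highest of its group at Cfap300 (4.27) and the lowest at Spag1 (2.81), and A3 replicate 3 was the highest at Dnah1 (2.67). In A2, replicate 4 was lowest at Spag11a (1.67) and replicate 3 lowest at Spag6l (3.12). In A1, replicate 2 was lowest at Foxj1 (1.75) and Rfx2 (3.31) and highest at Spag6l (3.86). In the young group, replicate 3 was highest at Tctn1 (4.68).

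In H3K27ac, A3 replicate 3 was highest at the Tctn1 promoter (2.36), replicate 5 highest at Tctn3 within the gene (2.83) and lowest at Cfap58 (0.447), and replicate 10 lowest at the Tctn2 promoter (0.594) and at the Arl13b internal peak (−0.716). In A2, replicate 5 was highest at the outlying Tctn1 peak (2.51) and replicate 4 lowest at the Tctn3 promoter (0.0385). In A1, replicate 1 was highest at Cfap206 (0.643) and replicate 2 lowest at the Tctn1 promoter (1.84). Young replicate 7 was lowest at the Tctn2 promoter (0.359) and at Tctn3 within the gene (0.709), and highest at the Arl13b internal peak (1.74) and Cfap58 (2.28). Young replicate 4 was lowest at Cfap45 (0.401) and Ift140 (1.25). Young replicate 5 was highest at the Tctn2 internal peak (1.20) and lowest at an Rfx2 promoter peak (−0.752), and young replicate 6 was lowest at Rfx2 within the gene (1.05).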

How the results depend on the processing

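Counts of member peaks higher and lower in A3 against young were 10 and 25 for H3K4me3 and 17 and 29 for H3K27ac. They became 2 and 7, and 2 and 1, with a factor for the digit in the library code, 4 and 8, and 4 and 2, without the libraries of code digit 6, 4 and 9, and 9 and 8, with a factor for the series of mouse numbers, 0 and 5, and 0 and 0, among mouse numbers under 100 alone, and 0 and 1, and 0 and 0, with the marker score (epithelial minus stromal) as covariate. The H3K27ac gains numbered 8 with the filter on low values (the lowest 25% of peaks). Of the 26 named H3K27ac calls, 19 were at peaks the filter kept, and all 19 passed. The others were at peaks it removed. The H3K4me3 gains numbered 5 on values as deposited. The causes of these shifts were not tested. Median centring, a pseudocount of 0.5 RPKM, no trend, only the 2 groups compared and voom weights on recovered reads kept every count within 1.5 times. Of the named peaks, the differences at Cfap61 (−0.15) and Spag9 (0.0704) in H3K4me3 changed sign with the marker score. Replicate numbers do not pair the animals, since same-numbered libraries did not all vary together. With the replicate number as a block the counts were 10 and 21 for H3K4me3 and 21 and 25 for H3K27ac. Between A3 and A2, the Rfx2 call was lost under the block, on values as deposited and with only the 2 groups, with 0 called in each. Shares of all peaks are not given beside the counts of this section. The counts therefore do not say whether calls at members were less stable than calls at other peaks.

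Leaving out 1 library at a time, the H3K4me3 counts ran from 8 to 13 higher and 16 to 34 lower, and the H3K27ac counts from 11 to 21 and from 16 to 40. The counts of 34, 21 and 40 were those without A3 replicate 10. That library had the lowest marker score of A3 in each mark (−1.01 in H3K4me3 and −1.25 in H3K27ac), and the part of the score in these counts was not tested. The H3K4me3 losses numbered 16 without young replicate 1. The H3K27ac losses numbered 18 without young replicate 2, 17 without young replicate 3, and 18, 16, 19, 18 and 19 without A3 replicates 2, 6, 7, 8 and 9, and the gains 11 without A3 replicate 2. Between A3 and A2, the H3K4me3 count ran from 0 to 11. It was 0, without the Rfx2 call, for 11 of 16 libraries left out, given beside that result. It was 11 without A3 replicate 10, 4 without A3 replicate 3, 6 without A3 replicate 4 and 6 without A2 replicate 5. In H3K27ac that count ran from 0 to 1, with 1 without A2 replicate 5. All such counts for A2 or A1 against young were 0. Depth limits the internal peaks most, such as Ift122 with a median of 24 reads per library in H3K4me3.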
